A study of Rattus norvegicus with 18 samples.

Results

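Matrix metalloproteinases (MMPs) and the tissue inhibitors of metalloproteinases (TIMPs) were followed through the ageing rat eye. The genes were taken by name: the proteases Mmp2, Mmp3, Mmp9, Mmp10, Mmp12 and Mmp14 and the inhibitors Timp1, Timp2, Timp3 and Timp4. All 10 were found among the 32285 genes of the retina table and the 32552 genes of the RPE/choroid table. RNA was sequenced from the neural retina and from the retinal pigment epithelium with choroid (RPE/choroid) of Fischer344 rats, an ageing model with progressive retinal degeneration. The young rats were 4 months old, the aged rats were 24 months old and had water alone, and the 8-AG aged rats were also 24 months old and had taken 5 mg per kg body weight of 8-aminoguanine (8-AG) a day in their drinking water for 8 weeks. 8-AG is an endogenous purine that inhibits purine nucleoside phosphorylase. Each group had 3 libraries in each tissue, 18 in all.

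MMPs are secreted or membrane-bound zinc proteases that cut collagens, laminins, proteoglycans and other matrix and cell-surface proteins. They are made as inactive proenzymes, and the TIMPs bind and block the active enzymes. In the eye, this balance maintains the basement membranes, including Bruch's membrane between the RPE and the choroid, where TIMP3 is deposited, and it shifts in gliosis, inflammation and new vessel growth.

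Retina libraries held 12283458 to 15644346 counts and RPE/choroid libraries 28573828 to 48203050 counts. Levels are counts per 1000000 counts (CPM) after TMM scaling within a tissue, so they are not compared between genes or between tissues. Replicate libraries of a group are not stated to be separate animals, and young RPE/choroid libraries 1 and 2, and aged RPE/choroid libraries 1 and 2, share an animal number in their labels with a different side letter, so p-values measure the spread between these libraries. The 3 8-AG aged retina libraries are labelled total RNA and the other libraries polyA RNA, although the protocol describes poly-A capture for all retinae. Markers of rods summed to 34526 to 59778 CPM in retina, and RPE markers to 6157 to 19207 CPM in RPE/choroid. The first 8-AG aged RPE/choroid library stood apart: its rod markers summed to 56289 CPM and its skeletal muscle markers to 50162 CPM, against at most 19981 and 4742 CPM in the other 8 RPE/choroid libraries. Surface epithelium markers summed to 2092 CPM in it and 505.6 CPM in the third 8-AG aged library, against at most 176.6 CPM in the young and aged libraries.

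In the aged retina, Mmp3 and Timp1 rose. These were 2 of the 7 members tested against young retina at an adjusted p under 0.05 (edgeR quasi-likelihood test, adjusted over all 14588 genes tested), where 14.5% of all genes were called and 7.29% were called higher. Mmp9, Mmp10 and Mmp12 were below the filter on low counts and were not tested in retina. Of the 7 tested members, 5 had every aged library above every young library, namely Mmp2, Mmp3, Timp1, Timp2 and Timp4, whereas 18.0% of all genes tested did so. The median log2 fold change of the 7 was 0.67, against 0.0019 over all genes tested. Since members with low counts entered the test through the group in which they were higher, these counts and the median describe the tested members only.

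Mmp3 encodes stromelysin-1, a secreted protease of broad matrix specificity that also activates other proMMPs. Its expected counts were 0 in all 3 young retinae and 33, 13 and 37 in the aged retinae, or 2.57, 0.829 and 2.56 CPM. All aged libraries therefore stood above all young ones, at low counts. Aged retina was at least 26.4-fold higher than young retina, taking the young group at a floor of 3 counts over its 3 libraries. The fitted log2 fold change was 7.79 ± 1.15 (SE, n = 3 libraries per group), a size that depends on the prior count, with an adjusted p of 0.00654 from edgeR. With all 3 retina groups in one edgeR fit the adjusted p was 0.313, and when each of the 6 libraries was left out in turn it was between 0.000281 and 0.0269.

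Mmp10, stromelysin-2, is the closest relative of Mmp3 and lies beside it in a cluster of MMP genes. It too had 0 counts in the 3 young retinae, and 7, 4 and 3 expected counts in the aged retinae. No young library reached an aged one, and aged retina was at least 4.46-fold higher against the same floor. Without the filter on low counts its adjusted p was 0.019 (edgeR). Mmp12, the macrophage metalloelastase of the same cluster, had 1, 1 and 0 counts in young and 7, 2 and 4 counts in aged retina. The ratio of summed counts was 6.21, with an exact 95% interval of 1.41 to 56.7 that covers counting error only, and without the filter its adjusted p was 0.147 (edgeR).

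Because Mmp3, Mmp10 and Mmp12 all had more counts in aged than in young retina, their promoters are shown with that of Timp1. Sequences are the 250 bases before the annotated start in RefSeq on GRCr8, read 5′ to 3′ on the gene's strand; 7 of the 10 members matched, and Mmp2, Mmp9 and Mmp14 did not. Capitals mark the AP-1 motif TGANTCA and the ETS-family (PEA3) motif AGGAAG, searched on both strands.
Mmp3, chr8:12925031-12925280, plus strand: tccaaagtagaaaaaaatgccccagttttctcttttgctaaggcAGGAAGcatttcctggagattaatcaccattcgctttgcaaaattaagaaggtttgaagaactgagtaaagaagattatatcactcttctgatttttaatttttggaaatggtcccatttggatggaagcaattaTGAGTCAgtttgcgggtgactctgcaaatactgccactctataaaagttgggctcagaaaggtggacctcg
Mmp10, chr8:12974457-12974706, plus strand: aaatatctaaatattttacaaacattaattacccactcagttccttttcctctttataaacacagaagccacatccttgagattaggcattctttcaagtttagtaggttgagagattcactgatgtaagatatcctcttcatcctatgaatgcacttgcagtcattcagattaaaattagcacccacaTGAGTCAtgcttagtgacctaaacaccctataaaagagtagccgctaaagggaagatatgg
Mmp12, chr8:12866402-12866651, plus strand: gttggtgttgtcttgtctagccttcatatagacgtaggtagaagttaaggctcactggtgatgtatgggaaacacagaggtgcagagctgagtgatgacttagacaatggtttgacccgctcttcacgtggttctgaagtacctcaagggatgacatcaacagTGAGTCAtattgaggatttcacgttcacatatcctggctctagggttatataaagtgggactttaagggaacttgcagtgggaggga
Timp1, chrX:3771123-3771372, minus strand: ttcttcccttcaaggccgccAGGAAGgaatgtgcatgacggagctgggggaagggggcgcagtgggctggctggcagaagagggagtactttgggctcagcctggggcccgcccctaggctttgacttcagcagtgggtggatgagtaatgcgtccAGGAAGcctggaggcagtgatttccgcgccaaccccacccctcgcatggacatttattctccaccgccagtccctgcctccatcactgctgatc

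The 3 clustered proteases each held TGAGTCA once on the plus strand, at -71 to -65 in Mmp3, -61 to -55 in Mmp10 and -87 to -81 in Mmp12, counted back from the base before the start. The motif TGANTCA was in 6.34% of 33469 promoters of this length, and it was not found in the windows of Timp1, Timp2, Timp3 or Timp4. No other form of the AP-1 motif was searched for, so AP-1 sites of other spelling are not covered. AGGAAG, present in 29.5% of the promoters, occurred once in Mmp3, at -206 to -201, at -230 to -225 and -94 to -89 in Timp1, and on the minus strand at -158 to -153 in Timp4. A TATAAA lay between -39 and -27 in each of Mmp3, Mmp10 and Mmp12, and 12.9% of all promoters held TATAAA anywhere in the window. These matches describe the letters only.

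The other proteases of the retina moved less. Mmp2, gelatinase A, which degrades type IV collagen, was at 1.62, 1.65 and 1.01 CPM in the young retinae and 2.03, 2.74 and 2.003 CPM in the aged. The groups did not overlap, but the log2 difference of 0.67 ± 0.29 (SE) did not pass the test (adjusted p = 0.162, edgeR). Mmp14, the membrane-type protease that activates proMMP2, averaged 24.9 ± 3.42 CPM in young retina and 21.6 ± 2.48 CPM with age (SD, n = 3 each), overlapping groups with a log2 difference of -0.21 (adjusted p = 0.306, edgeR). Mmp9, gelatinase B, had 15 counts summed over the young and 19 over the aged libraries.

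Among the inhibitors, Timp1, a secreted TIMP that is induced by injury and cytokines in many tissues, rose 5.52-fold. Its level was 2.93, 3.91 and 1.01 CPM in the young retinae and 11.54, 21.2 and 10.2 CPM in the aged retinae. The lowest aged library was above the highest young one by a wide margin. The log2 fold change was 2.46 ± 0.54 (SE, n = 3 per group) with an adjusted p of 0.0408 (edgeR). This call was close to the threshold: leaving out a library kept the log2 fold change between 2.06 and 2.88, but the adjusted p was above 0.05 in 5 of 6 such fits (0.0414 to 0.136), and it was 0.0902 without the filter on low counts.

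Timp2, which inhibits MMPs and also joins MMP14 to activate proMMP2, was at 97.7, 93.2 and 80.4 CPM in the young libraries and 98.7, 117 and 104 CPM in the aged ones. Aged libraries were all higher, by a small log2 difference of 0.24 ± 0.09 (SE) that missed the threshold (adjusted p = 0.111, edgeR). Timp4 was at 1.001, 0.527 and 0.743 CPM in young retina and 1.17, 1.47 and 1.796 CPM in aged retina, again without overlap and with a log2 difference of 0.96 ± 0.35 (SE, adjusted p = 0.0952, edgeR). Timp3, the matrix-bound TIMP whose human gene is mutated in Sorsby fundus dystrophy, averaged 43.0 ± 11.4 CPM in young retina and 45.3 ± 4.84 CPM in aged retina (SD, n = 3 each), with a log2 difference of 0.07 ± 0.21 (SE, adjusted p = 0.859, edgeR).

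**Figure D1:**
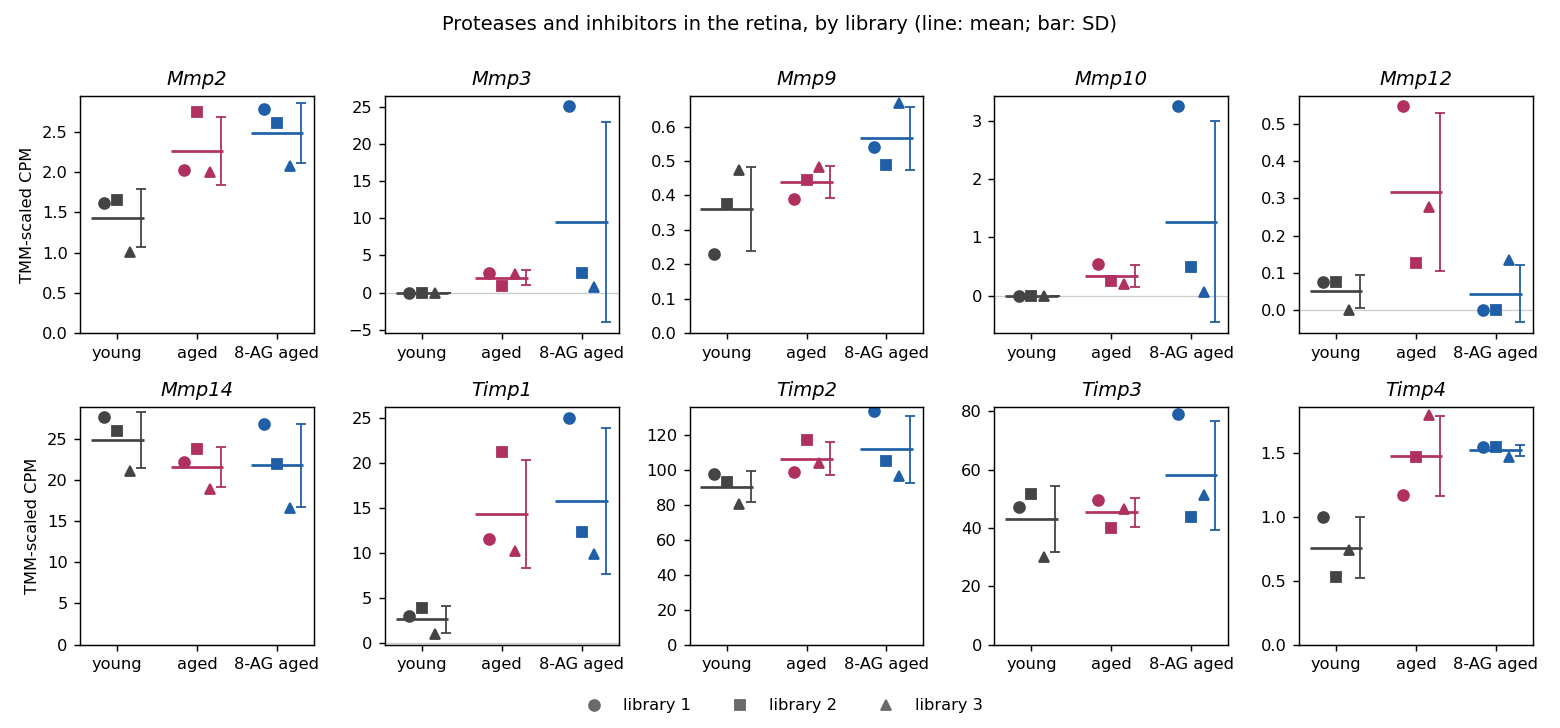
Levels of the 10 genes in each retina library, as TMM-scaled CPM on a linear vertical axis of its own for each gene, by group; lines are means and bars SDs of 3 libraries. Mmp3 and Mmp10 were at 0 in the 3 young libraries, Timp1 was higher in every aged than in every young library, and the first 8-AG aged library was the highest of all 9 for Mmp2, Mmp3, Mmp10, Timp1, Timp2 and Timp3.

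A second rule called genes that changed by more than 1.5-fold at an unadjusted P under 0.05. By this rule 4 of the 7 tested members were higher in aged retina (Mmp2, Mmp3, Timp1 and Timp4) and 0 were lower, against 6.45% of all genes called higher and 8.84% in either direction. Mmp3 and Timp4 passed the filter on low counts through the aged libraries, in which they were higher, so this count only describes the tested members. With a filter of at least 10 counts in every library, 2 were higher. When each library was left out in turn the count was 2 to 3, with 2 without young library 2 and 2 without aged library 3.

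Cell-type markers also differed between young and aged retina. All 9 tested markers of microglia and macrophages rose in aged retina, and their summed level was 39.4 to 41.5 CPM in the young group and 119 to 205 CPM in aged libraries. Microglial marker sums were highest in aged library 2, which had the highest Timp1 (21.2 CPM) and the lowest Mmp3 (0.829 CPM) of the 3 aged libraries. Rod markers summed to 54915 to 59778 CPM in young libraries and 34526 to 39190 CPM in aged libraries, with 10 of 13 tested markers lower. Fibroblast and pericyte markers summed to 89.7 to 181 CPM in the young group and 183 to 268 CPM in aged libraries, although 0 of 7 tested markers rose and 1 fell. The list member Fbln1, a matrix fibulin, was at 17.7 to 73.3 CPM in young and 119 to 192 CPM in aged libraries. Müller glia and astrocyte markers summed to 6432 to 6835 CPM in the young group and 6727 to 7244 CPM in aged libraries, and 4 of 10 rose while 2 fell. Within this sum, Gfap was at 21.1 to 33.3 CPM in the young group and 219 to 444 CPM in aged libraries. The abundant Glul was at 2596 to 2772 CPM in the young group and 1737 to 2155 CPM in aged libraries. T and B cell markers summed to 4.62 to 4.73 CPM in the young group and 9.39 to 14.9 CPM in aged libraries, and the 1 that was tested rose. Of that list, Cd4 was at 3.62 to 4.05 CPM in the young group and 8.22 to 13.8 CPM in aged libraries, while Cd3d, Cd3g, Cd8a and Ms4a1 were at 0 in young retina and Ms4a1 in aged retina. Endothelial markers summed to 645.4 to 708.8 CPM in the young group and 606.8 to 720.6 CPM in aged libraries, with 1 of 9 higher. Most of that sum was Kdr, at 582 to 651 CPM in the young group and 456 to 621 CPM in aged libraries. The median log2 fold change of the 9 was 0.57. Of the remaining lists, 1 of 4 tested surface epithelium markers and 1 of 3 neutrophil markers rose, and 0 of 5 skeletal muscle markers passed. Of 12 tested RPE markers, 1 fell and 0 rose at the threshold, although their median log2 fold change was 0.62. Of the marker lists, those of rods, microglia and Müller glia had no gene at 0 in either group, while the collagen gene Col1a2 of the fibroblast list was at 0 in aged retina. Lens markers went the other way, with 174.5 to 6990 CPM in young retinae and 17.8 to 24.6 CPM in aged ones. The part of these cell types in the results for Mmp3 and Timp1 was not tested, and in these bulk libraries fewer or more cells of a type and less or more RNA per cell cannot be told apart.

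Other proteases and regulators of the matrix were read against the 14.5% of all genes called in aged retina. Among the other MMPs, 1 of 6 tested rose, a share near that background: Mmp19, a secreted MMP, went from 0.411 ± 0.0896 to 2.39 ± 1.17 CPM (SD, n = 3 each), a log2 fold change of 2.52 ± 0.44 (SE, adjusted p = 0.00479, edgeR). Mmp19 had 17 counts over the young and 105 over the aged libraries. It passed the filter on low counts through the aged libraries, in which it was higher, so this share describes the tested genes only. Of 23 tested ADAM and ADAMTS proteases, 2 rose and 5 fell. Adamts3, a procollagen N-propeptidase, fell by 0.85 on the log2 scale (SE 0.10, adjusted p = 0.000834, edgeR), and Adamts7 and Adamts19 fell by 0.79 and 1.13. Adamts2, another procollagen N-propeptidase, rose by 1.25 on the log2 scale (adjusted p = 0.0316, edgeR), while Adam9, a membrane sheddase, fell by 0.20.

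Of 15 tested regulators and partners of MMPs, 2 rose, a share near the 14.5% of all genes called. A2m, the broad protease trap alpha-2-macroglobulin, averaged 312 ± 8.10 CPM in young retina and 1220 ± 294 CPM in aged retina (SD, n = 3 each), a log2 fold change of 1.97 ± 0.17 (SE, adjusted p = 0.0011, edgeR). Tfpi2, a serine protease inhibitor of the matrix, rose by 0.68 ± 0.18 (log2, SE, adjusted p = 0.0317, edgeR). None of the 4 tested genes of plasminogen activation passed. The calls of Adamts2, Adam9 and Tfpi2 were each lost on leaving out any of 5 of the 6 libraries.

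In retina, 8-AG aged and aged rats were then compared. By their labels these groups also differ in RNA type, total against polyA, so treatment and RNA type cannot be told apart here. None of the 7 tested members passed (0 at an adjusted p under 0.05 by edgeR and 0 by DESeq2), where 0.0205% of all 14631 genes tested were called by edgeR. At an unadjusted P under 0.05 there were 0 members and 3.67% of all genes. All 7 overlapped between the groups, and 8.78% of all genes did not. By the fold and P rule 0 members were called, against 0.957% of all genes. The fitted log2 differences of the 7 were all above 0, with a median of 0.13. Over all genes tested the median was -0.0031, and 7175 were above 0. Those of Mmp3, Mmp14, Timp1, Timp2 and Timp4 fell below 0 in some fits that left out a library.

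Mmp3 had 324.58, 32 and 12 expected counts in the 8-AG aged retinae, or 25.1, 2.61 and 0.802 CPM. A lone library, the first, was far above the aged libraries, and the other two lay at their level. The log2 difference was 2.26 ± 1.48 (SE, adjusted p = 0.996, edgeR), and without that library it was -0.24. Mmp10 followed, at 42.42, 6 and 1 expected counts. The estimates of this pair in the first library add up to 367.0, a whole number, so reads had been shared between the 2 similar genes and each value is less certain than their sum.

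That first 8-AG aged library was also the highest for several inhibitors. Timp1 was at 25.01, 12.3 and 9.89 CPM in the 8-AG aged retinae, spanning the aged values, with a log2 difference of 0.13 ± 0.46 (SE, adjusted p = 0.996, edgeR) and of -0.38 without the first library. Timp3 was at 79.1, 43.8 and 51.2 CPM, and its log2 difference of 0.35 ± 0.22 (SE) fell to 0.07 without that library. Timp2 was at 133, 105 and 96.5 CPM, overlapping the aged group. Lens markers of the first library summed to 1900 CPM, against 20.7 and 24.2 CPM in the other two 8-AG aged libraries, and its RPE markers summed to 656 CPM, the most of any retina library. The part of these cells in the values of the first library was not tested.

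The groups also overlapped for the other tested members. Mmp2 was at 2.49 ± 0.369 CPM with 8-AG and 2.26 ± 0.419 CPM without, Mmp14 at 21.8 ± 5.08 and 21.6 ± 2.48 CPM, and Timp4 at 1.52 ± 0.0441 and 1.48 ± 0.313 CPM (SD, n = 3 each). Mmp9, which was not tested, had 23 counts over the 8-AG aged and 19 over the aged libraries, with the lowest 8-AG aged library (0.489 CPM) just above the highest aged one (0.483 CPM), and Mmp12 had 2 and 13. The Mmp12 ratio was 0.165, with an exact 95% interval of 0.018 to 0.727 for counting error only, and without the filter its adjusted p was 0.907 (edgeR). Of the other matrix genes listed, none passed. The smallest unadjusted P belonged to Reck, a membrane-anchored MMP inhibitor, at 39.3 ± 1.76 CPM with 8-AG and 47.8 ± 6.06 CPM without (adjusted p = 0.996, edgeR), and to Adam12 at 2.71 ± 2.20 and 1.06 ± 0.423 CPM (adjusted p = 0.996, edgeR). The log2 difference of Adam12 was 1.33, and 0.42 without the first 8-AG aged library.

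Set beside the young retinae, which were compared for overlap only, the 8-AG aged retinae were all higher for 4 of the 7 members tested in retina, Mmp2, Mmp3, Timp1 and Timp4, as were 17.6% of the 14443 genes tested in both retina comparisons. Mmp3 and Timp4 passed the filter through the aged or 8-AG aged libraries, in which they were higher, so this count too describes only the tested members. Mmp9 and Mmp10, below the filter on low counts and so outside that share, were also higher in all of them, but on few counts. The lowest 8-AG aged library had 6 counts of Mmp9 (0.489 CPM) and the highest young one 7 counts (0.473 CPM). For Mmp10, 8-AG aged library 3 had 1 count and the young libraries 0. The aged and 8-AG aged groups are each set against the same young libraries, from which the 8-AG aged ones also differ in their RNA label. The mean Timp1 level was 2.62 CPM in young, 14.3 CPM in aged and 15.7 CPM in 8-AG aged retina.

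**Figure D2:**
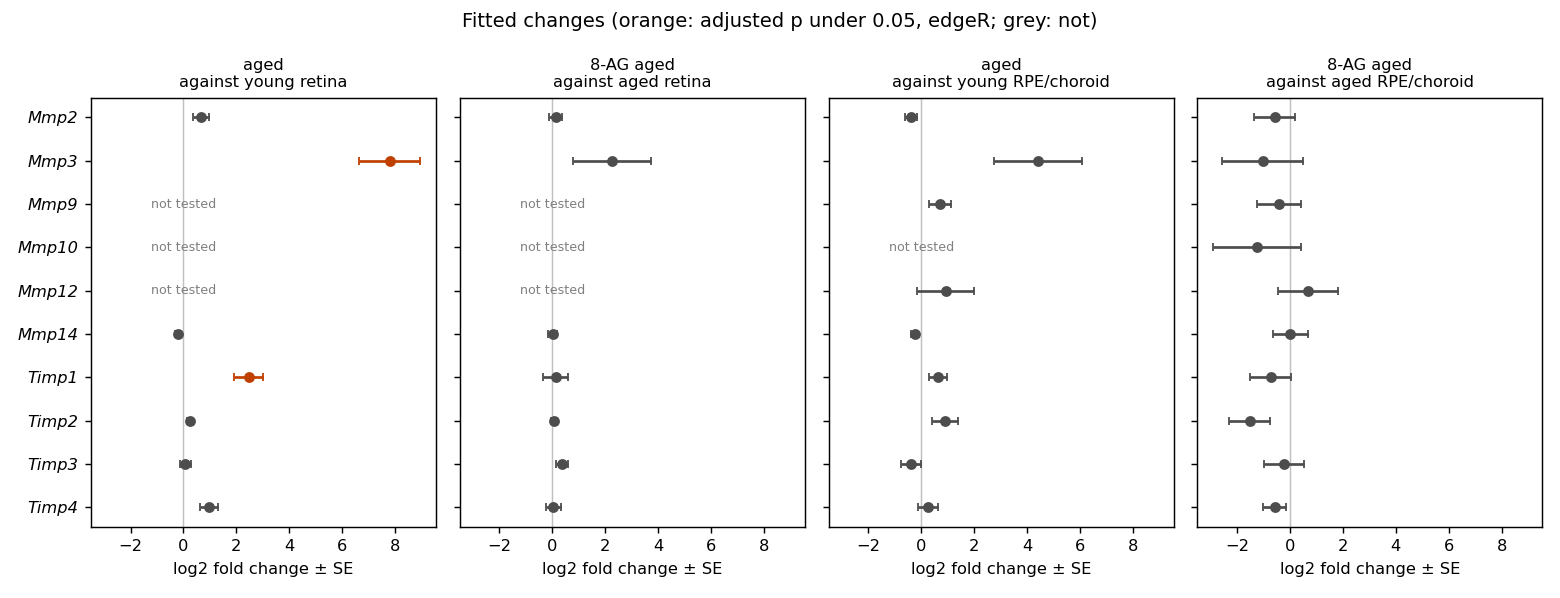
Fitted log2 fold changes with standard errors for the 10 genes (vertical axis) in the 4 comparisons (panels), from 3 libraries per group; orange marks an adjusted p under 0.05 by edgeR and genes below the filter on low counts are marked as not tested. Mmp3 and Timp1 in aged against young retina are the members called.

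In RPE/choroid, no member passed the test between aged and young rats. The count was 0 of 9 tested at an adjusted p under 0.05 by edgeR and 0 by DESeq2, with 1, Mmp3, at an unadjusted P under 0.05. Of all 16047 genes tested, 0.0% were called by edgeR at the adjusted threshold, 341 (2.13%) had an unadjusted P under 0.05, and DESeq2 called 29 genes. By the fold and P rule 1 member was higher, Mmp3, against 0.717% of all genes called higher and 1.35% in either direction. That count ranged from 0 to 3 when each library was left out, being 0 if young library 1 or 2 was omitted, 3 if aged library 1 was and 2 if aged library 2 was, and it was 0 with the replicate number as a block. Without overlap, Mmp3 was higher and Mmp14 lower, and of all genes tested 7.1% had groups that did not overlap, with 2.97% higher and 4.13% lower. The median log2 fold change of the 9 was 0.63, and 0.018 over all genes tested.

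Mmp3 was at 0.634, 0.728 and 0.335 CPM in the young group and 0.774, 1.001 and 35.2 CPM in aged RPE/choroid. Aged library 3 alone was high, and the other two aged libraries were just above the young ones. The log2 difference of 4.42 ± 1.66 (SE, adjusted p = 1.0, edgeR) was 0.66 without that library. Mmp10, not tested in this comparison, was highest in the same library, at 6.85 CPM, against 0.0323 and 0.383 CPM in the other aged libraries and at most 0.0809 CPM in the young. Mmp12 was at 0.4001, 0.108 and 0.815 CPM in the young group and 0.355, 0.177 and 2.06 CPM in aged libraries, so the same library was again the highest.

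The other proteases did not pass the test in RPE/choroid. Mmp14 was at 216, 242 and 231 CPM in the young group and 174, 210 and 200 CPM in aged libraries, without overlap, and its log2 difference of -0.24 ± 0.13 (SE) did not pass (adjusted p = 1.0, edgeR). Mmp2 was at 437 ± 75.7 CPM in the young group and 334 ± 76.6 CPM in aged RPE/choroid (SD, n = 3 each), with overlapping groups. Mmp9 was at 0.570 ± 0.256 and 0.951 ± 0.0972 CPM (SD, n = 3 each).

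Timp3, which the RPE deposits in Bruch's membrane, was at 3416, 3314 and 4547 CPM in the young group and 2695, 4276 and 1658 CPM in aged RPE/choroid. The groups overlapped, and aged library 3, the one with high Mmp3, was the lowest of the 6. The log2 difference was -0.39 ± 0.38 (SE, adjusted p = 1.0, edgeR) and -0.11 without that library. RPE markers summed to 9960 CPM in it, against 15329 to 16733 CPM in the other 5 young and aged libraries, and its fibroblast and pericyte markers to 4775 CPM, the lowest of the 6. Its Müller glia and astrocyte markers summed to 15437 CPM, the most of the 6.

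Timp1 was at 89.1, 118 and 119 CPM in the young group and 93.5, 213 and 203 CPM in aged RPE/choroid. A pair of aged libraries was above all young ones and the other was not, and the log2 difference of 0.63 ± 0.33 (SE) did not pass (adjusted p = 1.0, edgeR). Timp2 was at 156, 104 and 108 CPM in the young group and 198, 390 and 97.4 CPM in aged libraries, a wide spread with a log2 difference of 0.90 ± 0.51 (SE) that was 0.26 without aged library 2. Timp4 was at 18.1 ± 5.4 and 22.0 ± 9.83 CPM (SD, n = 3 each). With a rod marker score as a covariate the log2 differences were 0.54 for Timp1, 0.54 for Timp2 and 0.0405 for Timp4 (adjusted p = 0.628, 0.75 and 0.974, edgeR). The part of the other markers in these values was not tested.

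**Figure D3:**
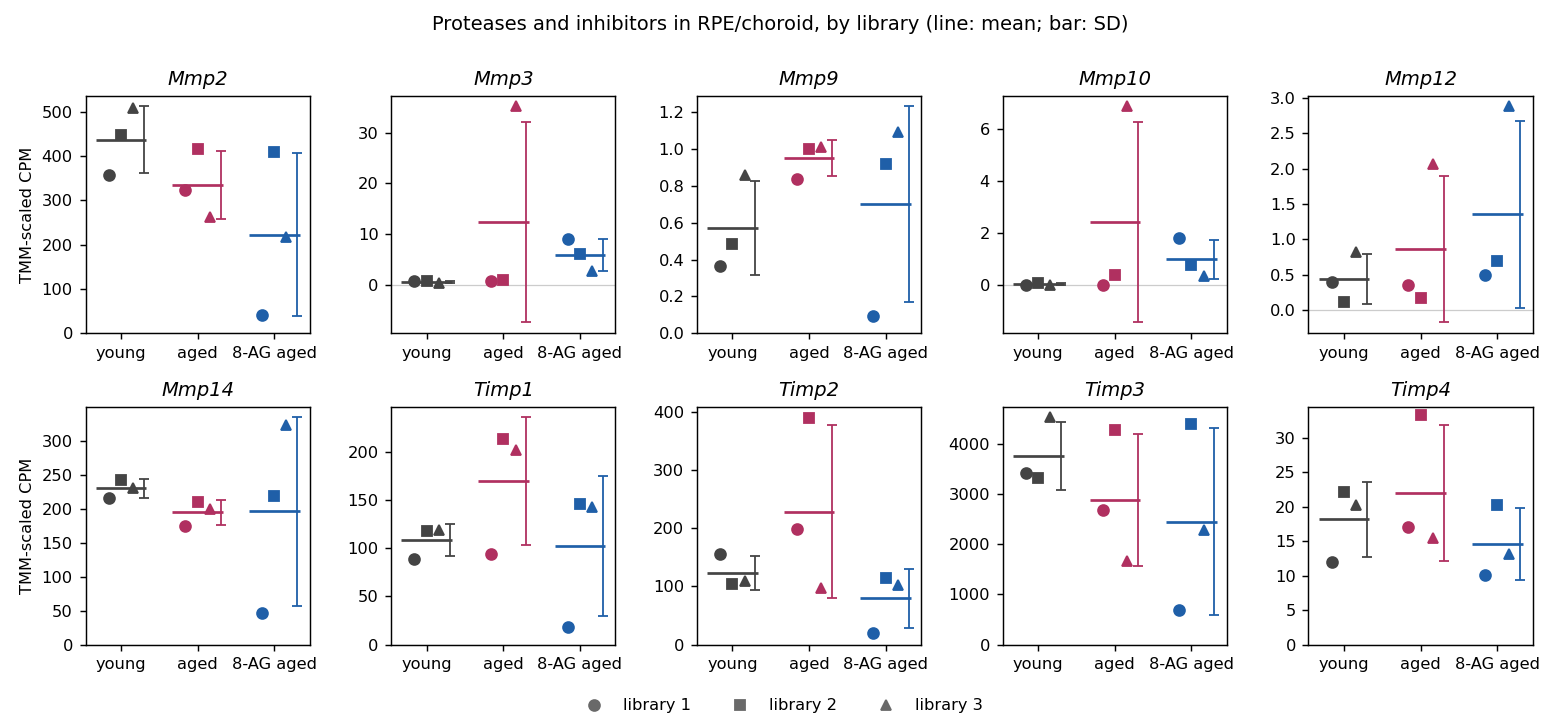
Levels of the 10 genes in each RPE/choroid library, as TMM-scaled CPM on a linear vertical axis of its own for each gene, by group; lines are means and bars SDs of 3 libraries. Aged library 3 is the highest for Mmp3 and Mmp10, and the first 8-AG aged library is the lowest of the 9 for Mmp2, Mmp9, Mmp14 and all 4 inhibitors.

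Between 8-AG aged and aged RPE/choroid, no member passed either. The count was 0 of 10 at an adjusted p under 0.05 by edgeR, 0 at an unadjusted P under 0.05 and 0 by DESeq2. Of all 16257 genes tested, 0.0% were called by edgeR at the adjusted threshold, 274 (1.69%) had an unadjusted P under 0.05, and DESeq2 called 81. All 10 members overlapped, and 3.96% of all genes did not. By the fold and P rule 0 were called, against 1.65% of all genes. The median log2 difference of the 10 was -0.58, and 0.011 over all genes tested.

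The first 8-AG aged library, with its high rod and muscle markers, was low for most members. Mmp2 was at 41.4 CPM in it and at 409 and 217 CPM in the other two, Timp3 at 684 against 4405 and 2276 CPM, and Timp1 at 18.5 against 146 and 143 CPM. Its fibroblast and pericyte markers summed to 1178 CPM and its endothelial markers to 687 CPM, the lowest of all 9 RPE/choroid libraries. Without this library, the log2 difference between 8-AG aged and aged RPE/choroid went from -0.58 to -0.10 for Mmp2, from -0.22 to 0.22 for Timp3 and from -0.73 to -0.23 for Timp1. In the alternative fits that left no library out, the difference ranged from -1.22 to -0.49 for Mmp2 and from -0.59 to -0.053 for Timp3. For Timp1 that range was -1.38 to -0.72, so other settings made these differences larger.

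Mmp3 was not low there. It was at 8.92, 6.05 and 2.62 CPM in the 8-AG aged libraries, all above the 3 young libraries and above aged libraries 1 and 2, and all below aged library 3. The log2 difference from aged RPE/choroid was -1.04 ± 1.52 (SE, adjusted p = 1.0, edgeR). It was 2.74 without aged library 3 and 1.48 with the replicate number as a block, so its sign was not stable. Mmp10 was at 1.83, 0.778 and 0.371 CPM in the same order. Its log2 difference of -1.25 became 2.25 without aged library 3 and 0.71 with the replicate block. Against young RPE/choroid, compared for overlap only, Mmp3 was higher in all 8-AG aged libraries, as were 2.7% of the 15901 genes tested in both RPE/choroid comparisons. Mmp10, which is outside that share, was also higher in all of them.

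Timp2 had the largest fitted difference of the 10, -1.53 ± 0.78 (log2, SE, adjusted p = 1.0, edgeR), from 20.6, 114 and 103 CPM with 8-AG, and it was -1.07 without the first 8-AG aged library and -0.88 without aged library 2, within a range of -1.89 to -0.88 when each library was left out in turn. Timp4 was at 14.5 ± 5.22 CPM with 8-AG, Mmp14 at 196 ± 140 CPM, Mmp9 at 0.70 ± 0.533 CPM and Mmp12 at 1.36 ± 1.32 CPM (SD, n = 3 each), all overlapping the aged group. Among the other matrix genes none passed in RPE/choroid. Those with the smallest unadjusted P were Adam17, the TNF-converting enzyme, and the aggrecanase Adamts5 in aged against young rats, with log2 differences of -0.59 and 0.72, and Efemp1, a fibulin that binds TIMP3, and the collagenase Mmp13 in 8-AG aged against aged rats, with 1.67 and 1.84. Efemp1 was -0.13 without 8-AG aged library 3, and Mmp13 was 3.80 without aged library 3 and ranged from 1.36 to 3.80 when each library was left out.

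**Figure D4:**
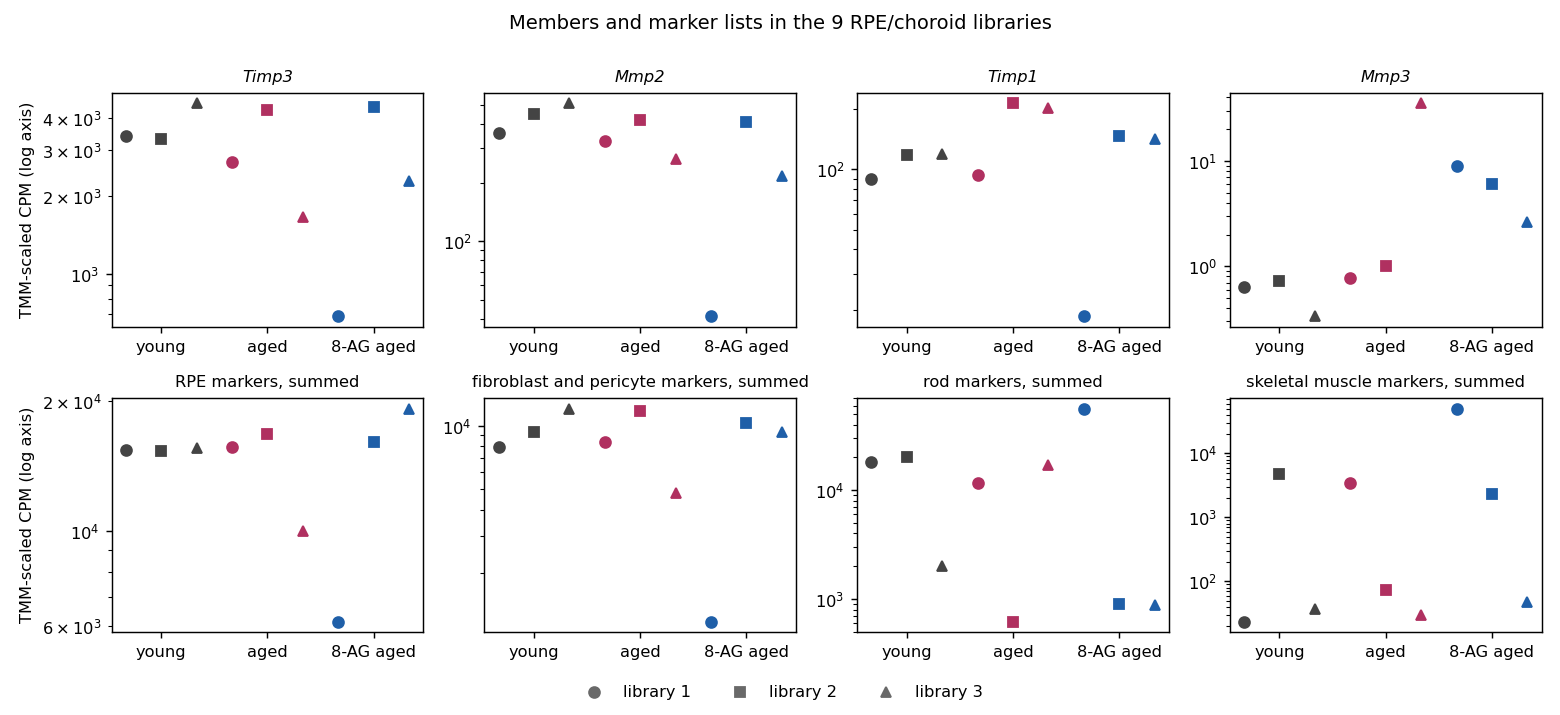
Levels of 4 of the genes (top) and summed marker levels (bottom) in the 9 RPE/choroid libraries, as TMM-scaled CPM on log axes, with 3 libraries per group along the horizontal axis. The first 8-AG aged library has the highest rod (56289 CPM) and muscle (50162 CPM) sums and the lowest Timp3, Mmp2 and Timp1.

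Whether the change with age differed between the tissues was tested by the interaction of tissue and age in the 12 young and aged libraries. None of the 9 tested members passed at an adjusted p under 0.05 (edgeR, 0 also by limma voom), where 0.161% of 16792 genes did, and 2 had an unadjusted P under 0.05, as did 8.25% of all genes. The 2 were Mmp2, whose log2 change with age was 1.07 ± 0.35 (SE) higher in retina than in RPE/choroid (adjusted p = 0.322, edgeR), and Timp1, with 1.84 ± 0.65 (SE, adjusted p = 0.408, edgeR). Those 2 also met the fold and P rule, against 6.78% of all genes. For Mmp3 the difference was 4.13 ± 4.33 (SE, adjusted p = 0.97, edgeR), with young retina at 0. Among the remaining members the difference was 1.64 ± 1.78 for Mmp12, 0.70 ± 0.54 for Timp4, 0.47 ± 0.46 for Timp3, 0.0492 ± 0.18 for Mmp14, -0.42 ± 0.58 for Mmp9 and -0.65 ± 0.56 for Timp2 (log2, SE). Mmp10 was below the filter and was not tested. The call of Timp1 in retina and its absence in RPE/choroid are therefore not shown to differ. Of the other matrix genes, Mmp19 (2.88 ± 0.58, adjusted p = 0.0831) and the matrilysin Mmp7 (adjusted p = 0.103) had the smallest P in this edgeR test and did not pass. Mmp7 had 0 counts over the young and 35 over the aged retinae, so its fitted size depends on the prior count and is not given.

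Genes with profiles most like those of Mmp3 and Timp1 in retina, the called members, and of Timp1 and Timp3 in RPE/choroid, where none was called, were sought over the 9 libraries of a tissue, by Pearson's r of log2 CPM, which is a description over libraries that share group and depth. In retina, Timp1 was most like C2, a complement component (r = 0.996), Rassf2 (r = 0.995) and Carhsp1 (r = 0.99), and its r with Mmp2 was 0.97. Mmp3 in retina was most like Tgfbr3 (r = 0.976), Mfap3l (r = 0.963) and Sipa1l1 (r = 0.962), and its r with Timp1 was 0.838. In RPE/choroid, Timp1 was most like Phc2 (r = 0.995), Ppp2cb (r = 0.988) and Tmem259 (r = 0.987). Timp3 there was most like LOC679811 (r = 0.997), Bnip2 (r = 0.994) and Heph (r = 0.993), its r with Mmp2 was 0.947 and its r with Mmp3 was -0.628.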

How the data were processed

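For retina, the authors deposited expected counts per gene estimated by RSEM; 11.5% were not whole and all were rounded. For RPE/choroid, the authors deposited raw counts per gene; the counting program is not given in the sources used here. The submitters' processing notes name Bowtie2 2.1.0, RSEM 1.2.15, edgeR and the build Rnor_6.0 without roles. A TMM-scaled signal table and size-factor-scaled signal columns that the authors deposited served only to pair identifiers with symbols. Tables and columns of the authors' own fold changes and p-values were not used. RPE/choroid libraries were made from less RNA with enrichment for full-length transcripts.

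Counts were filtered (filterByExpr), TMM-scaled and tested with edgeR 4.0.16 (glmQLFit with robust=TRUE, glmQLFTest) in R 4.3.3 between the 2 groups compared, 3 libraries each, with Benjamini-Hochberg adjustment over all genes tested. The second rule asked for a change of more than 1.5-fold and an unadjusted P under 0.05. Log2 CPM used a prior count of 2, and the floor was 3 counts over a group. Alternatives used DESeq2 1.42.0, limma 3.58.1, RLE factors, other filters, a joint fit, unrounded counts, a replicate block, libraries with a shared label number summed, a rod covariate and leaving out each library. The steps were tested on simulated data.

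The 10 members, the other gene lists and the markers were chosen with earlier results of these data known. All members were named in every comparison; other matrix genes were named where called, at most 8 by smallest adjusted p, or else the 2 with the smallest P. Profile neighbours were the 3 genes with the highest r. No transcript lengths were used, so levels are not compared between genes.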

Additional observations from a re-analysis of the deposited data

How the results depend on the processing

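In aged against young retina the count of called members went from 2 to 1 with at least 10 counts in every library, where Mmp3 is not tested, and to 1 with all 3 groups in one fit, and ranged from 1 to 2 when a library was left out. The fold and P count there went from 4 to 2 with at least 10 counts in every library and to 5 without a filter, and ranged from 2 to 3 when a library was left out. The same count went from 0 to 1 without a filter in 8-AG aged against aged retina. For RPE/choroid, aged against young, it went from 1 to 2 without a filter, with all 3 groups in one fit, with libraries of a shared label number summed and with the rod covariate, to 0 with the replicate block, and ranged from 0 to 3 when a library was left out. In 8-AG aged against aged RPE/choroid it went from 0 to 1 with the rod covariate and ranged from 0 to 1 when a library was left out, and for the interaction it went from 2 to a range of 1 to 4. The cause was not tested where fits differ in neither genes nor libraries.

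Some fitted log2 differences changed sign when a library was left out. Their ranges over these fits were -0.13 to 0.23 for Timp3 in aged against young retina. In 8-AG aged against aged retina they were -0.24 to 2.82 for Mmp3, -0.17 to 0.18 for Mmp14, -0.38 to 0.54 for Timp1, -0.0813 to 0.17 for Timp2 and -0.10 to 0.19 for Timp4. For RPE/choroid of aged against young rats they were -0.74 to 1.74 for Mmp12 and -0.16 to 0.48 for Timp4. For 8-AG aged against aged rats there they were -1.60 to 2.74 for Mmp3, -0.90 to 0.078 for Mmp9, -2.08 to 2.25 for Mmp10, -0.53 to 2.35 for Mmp12, -0.55 to 0.47 for Mmp14, -0.95 to 0.22 for Timp3 and -0.13 to 2.11 for Efemp1. The interaction of Mmp14 ranged from -0.0527 to 0.14. With the rod covariate Mmp14 was -0.52 in 8-AG aged against aged RPE/choroid.

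Replicate numbers were not taken as pairs, and the correlations of deviations between same-numbered libraries ranged from -0.577 to 0.648. In 8-AG aged against aged retina the same-numbered library was the best match each time, at correlations of only 0.038 to 0.084. With the replicate block Mmp3 was 1.48, Mmp10 0.71 and Mmp14 -0.34 in 8-AG aged against aged RPE/choroid and Mmp14 -0.0081 in retina, and 2 members were called in aged against young retina and 0 in the other comparisons. In all, 742 values for single genes kept direction and side of the threshold, 26 lost a call and 29 changed sign. Having 3 libraries a group limits precision, and Mmp3, Mmp10 and Mmp12 in retina rest on few counts.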
